A study of Mus musculus with 13 samples.

Results

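The genes of proline-rich and SMR salivary proteins, Prol1, Smr3a, Smr2, Prpmp5 and Prh1, were followed through submandibular gland development in the mouse. The 5 genes were found by their symbols in the 23364 rows that each of the 13 expression files holds. They were selected on measured values: all 5 stand in the study's list of stage-enriched genes, which was made from these libraries, and Prol1 and Prpmp5 were among the largest stage changes in earlier results of these data. Their levels are therefore given as a description, without tests. The submandibular gland, 1 of the 3 large pairs of salivary glands, was dissected from C57BL/6 mice at 3 embryonic ages in days (E14.5 with 3 libraries, then E16.5 and E18.5) and at postnatal day 5 (P5), 4 weeks (4wk) and 12 weeks (12wk), with 2 libraries for each age after E14.5. No group carried a transgene, a deletion or a treatment. The embryonic libraries were made from pooled animals, 3 per library at E14.5 and 2 per library at E16.5 and E18.5. The 4wk and 12wk mice were male, whereas sex was not determined before birth or at P5. Values are FPKM, read counts scaled by the length of the transcript and by the depth of the library.

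Saliva owes its viscosity, lubrication and protective film to a small number of very abundant secreted proteins. Prol1, also known as Muc10, encodes the apoprotein of a mucin that acinar cells of the mouse submandibular gland secrete. Smr3a and Smr2 belong to the family of submandibular androgen-regulated proteins, whose relatives in rodents are cut into short signalling peptides. They lie on chromosome 5 among the secretory calcium-binding phosphoprotein (SCPP) genes, which also include the caseins of milk and the proteins of enamel. Prpmp5 and Prh1 encode proline-rich proteins, repetitive salivary proteins that bind tannins and, in the acidic forms, calcium. In rodents the proline-rich protein genes are known for their strong response to β-adrenergic stimulation. Prb1 and Prp2, a pair of proline-rich protein genes that are not among the 5, were used as relatives for comparison.

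The genes fell into 2 groups on the mm9 genome. On chromosome 5, on the plus strand, Smr3a (chr5:88431550-88437559), Smr2 (chr5:88515581-88538078) and Prol1 (chr5:88746337-88757842) lay in this order, with 78.0 kb between Smr3a and Smr2 and 208 kb between Smr2 and Prol1. On chromosome 6, Prb1 (chr6:132156820-132160534) and Prpmp5 (chr6:132261608-132264775) were on the minus strand, 101 kb apart. Prh1 (chr6:132519827-132522419) and Prp2 (chr6:132545931-132551254) were on the plus strand with 23.5 kb between them. The longest GENCODE coding sequence gave a protein of 312 residues for Prol1, 147 for Smr3a, 150 for Smr2, 296 for Prpmp5 and 261 for Prh1. Proline made up 14.4% of the residues of Prol1, 31.3% of Smr3a, 15.3% of Smr2, 28.0% of Prpmp5 and 42.9% of Prh1. Glutamine and glycine were also frequent in the chromosome 6 proteins. Glutamine was at 18.2% in Prpmp5 and 16.1% in Prh1, against 1.92% to 3.33% in the chromosome 5 proteins. Glycine was at 16.9% in both Prpmp5 and Prh1, against 1.28% to 9.52% in the chromosome 5 proteins.

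**Figure D1:**
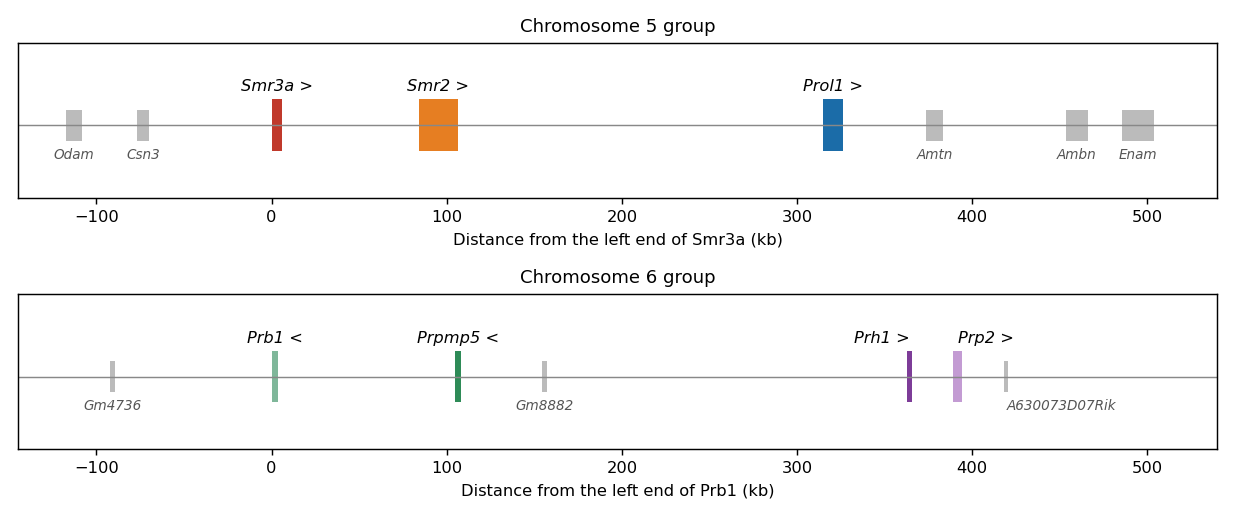
Map of the genes, drawn to scale on mm9, with the distance in kb from the left end of Smr3a (above) and of Prb1 (below) on the horizontal axis. Coloured boxes are the 5 genes and the relatives Prb1 and Prp2, with the strand as an arrow, grey boxes are some of the neighbours, and the gaps run from 23.5 kb (Prh1 to Prp2) to 255 kb (Prpmp5 to Prh1).

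The sequences before the transcription starts fell into 3 like pairs, and they are shown so that each pair can be set beside the levels of its genes. Windows of 250 bases before the start were taken from RefSeq (GRCm38.p6), where all 7 genes had an entry, and each was found once, without a mismatch, in mm9. Only the stretch that aligned within the pair is printed, 5′ to 3′ on the strand of the gene. Capitals mark bases that differ from the partner or have no partner in it. The mm9 positions are chr5:88431313-88431549 for Smr3a and chr5:88515331-88515564 for Smr2, both on the plus strand.
Smr3a: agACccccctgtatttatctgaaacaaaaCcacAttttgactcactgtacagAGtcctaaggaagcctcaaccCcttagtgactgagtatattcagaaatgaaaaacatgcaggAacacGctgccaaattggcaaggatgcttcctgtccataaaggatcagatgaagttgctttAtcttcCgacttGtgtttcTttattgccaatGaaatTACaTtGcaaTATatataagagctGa
Smr2: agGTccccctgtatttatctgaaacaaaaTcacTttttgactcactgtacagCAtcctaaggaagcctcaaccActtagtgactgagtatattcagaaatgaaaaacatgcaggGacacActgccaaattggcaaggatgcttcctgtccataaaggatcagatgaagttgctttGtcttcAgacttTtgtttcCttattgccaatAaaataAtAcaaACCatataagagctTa
Prpmp5 (chr6:132264762-132265002) and Prb1 (chr6:132160549-132160789), both on the minus strand, formed the next pair.
Prpmp5: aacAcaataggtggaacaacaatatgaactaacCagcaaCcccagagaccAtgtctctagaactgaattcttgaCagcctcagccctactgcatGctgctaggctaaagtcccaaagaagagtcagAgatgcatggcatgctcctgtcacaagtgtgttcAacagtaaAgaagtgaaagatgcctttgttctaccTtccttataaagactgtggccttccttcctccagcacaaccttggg
Prb1: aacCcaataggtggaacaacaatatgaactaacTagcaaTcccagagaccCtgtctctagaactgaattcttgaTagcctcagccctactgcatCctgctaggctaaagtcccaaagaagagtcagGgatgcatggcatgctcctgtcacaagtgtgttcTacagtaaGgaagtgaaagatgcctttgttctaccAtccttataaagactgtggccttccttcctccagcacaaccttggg
Prh1 (chr6:132519610-132519824) and Prp2 (chr6:132545712-132545928), both on the plus strand, formed the last pair.
Prh1: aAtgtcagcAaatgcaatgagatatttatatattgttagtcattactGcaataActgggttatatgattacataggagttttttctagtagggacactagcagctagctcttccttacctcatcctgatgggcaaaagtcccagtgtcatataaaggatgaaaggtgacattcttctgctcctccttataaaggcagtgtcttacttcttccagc
Prp2: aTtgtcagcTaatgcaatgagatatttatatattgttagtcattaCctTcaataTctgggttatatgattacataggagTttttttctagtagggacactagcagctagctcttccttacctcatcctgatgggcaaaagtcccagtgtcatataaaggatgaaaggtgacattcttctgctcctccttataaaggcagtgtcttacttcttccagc

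Smr3a and Smr2 shared 214 of 234 aligned bases (91.5%), Prpmp5 and Prb1 shared 231 of 241 (95.9%), and Prh1 and Prp2 shared 211 of 215 (98.1%). Between Prpmp5 and Prh1, 136 of 182 aligned bases were identical. Prol1 had no such partner among the other 6 genes, since at most 111 of its 250 bases aligned with any of them. The motif TATAAA, the core of a TATA box, was searched on both strands and was present in the windows of Prpmp5, Prb1, Prh1 and Prp2, against 12.4% of 32851 RefSeq windows of the same length. It was not found as these letters in Smr3a, Smr2 or Prol1. The motif TGTTCT, the core of a steroid receptor site, was found 1 time in Prpmp5 and 2 times in Prb1, and in 16.1% of all windows. The motif TTCNNNGAA was in none of the 7 windows and in 7.02% of all windows. The coding sequences were less alike within the chromosome 5 pair, with 70.4% of aligned bases identical for Smr3a and Smr2, than within the others, with 89.8% for Prpmp5 and Prb1 and 94.4% for Prh1 and Prp2.

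Because reads that mapped to several places were excluded from the counts, likeness between genes bears on the levels. Every 50-base stretch of the exons of Smr3a was found only 1 time in mm9. The share was 98.02% for Smr2, 94.9% for Prol1, 72.9% for Prpmp5, 69.2% for Prh1, 56.8% for Prp2 and 30.9% for Prb1. The levels of the proline-rich protein genes thus rest on part of their sequence, and are uncertain relative to other genes. Changes of the same gene between time points use the same sequence at each time point.

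Depth differed mainly at 4wk. The reads on genes, recovered from the steps of the low FPKM values, numbered 5817293 and 7957918 at 4wk and between 17345305 and 48314162 elsewhere. All 5 genes reached 1 FPKM in at least 1 library, the condition for entering the fit of 14650 genes. A gene was called between neighbouring time points when its log2 difference reached 1 in either direction with a limma p-value, adjusted over all tested genes, under 0.1. In bulk tissue, fewer cells of a type and less RNA per cell cannot be told apart.

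**Figure D2:**
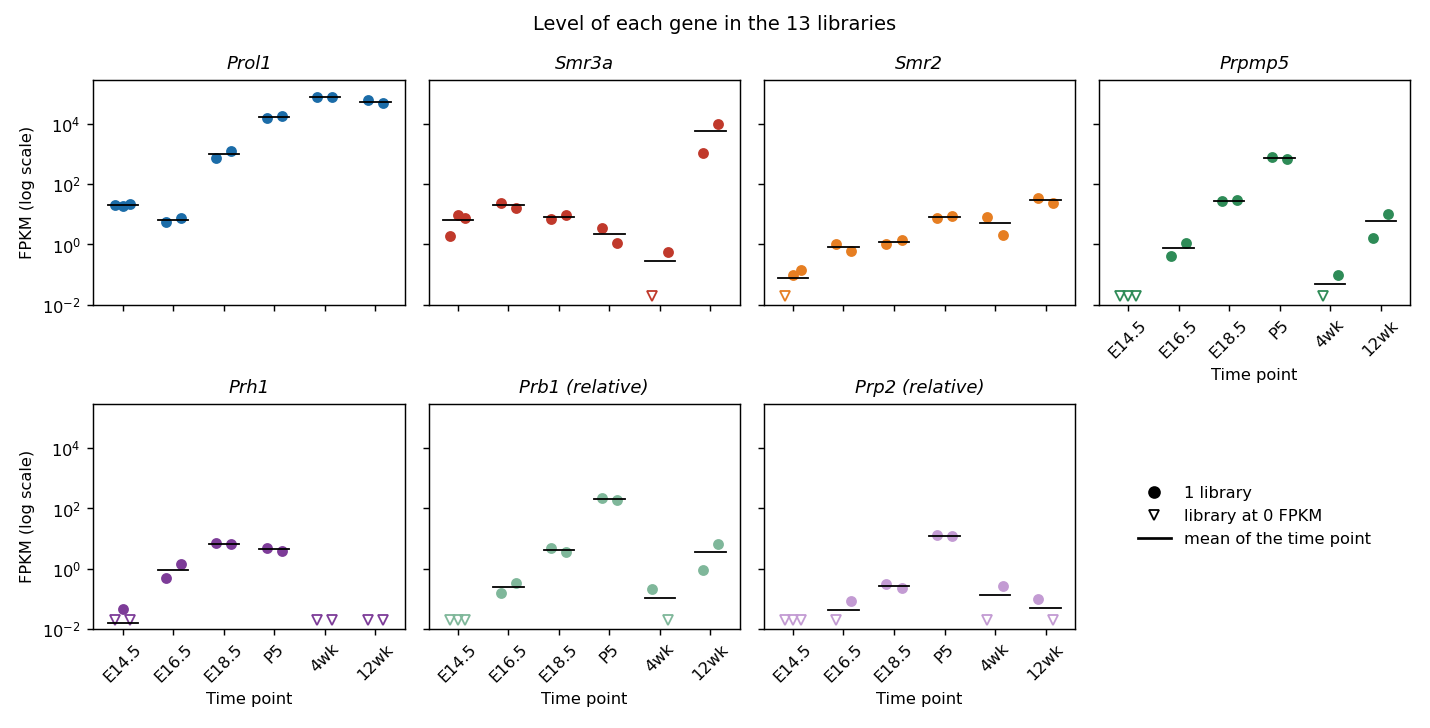
FPKM (vertical axis, log scale) of the 5 genes and of Prb1 and Prp2 at the 6 time points (horizontal axis). Points are libraries, open triangles are libraries at 0 FPKM, lines are means, and Prol1 reaches a mean of 80043 FPKM at 4wk while Smr3a is highest at 12wk and Prpmp5 at P5.

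Prol1 was by far the most abundant of the 5 genes in late glands. It stood at 20.8, 18.9 and 22.0 FPKM in the E14.5 libraries and at 5.70 and 7.42 FPKM in those of E16.5. The E18.5 libraries held 759 and 1299 FPKM and the P5 libraries 15940 and 18702 FPKM. The levels then stood at 79119 and 80967 FPKM at 4wk, and at 61535 and 49777 FPKM at 12wk. No 2 time points overlapped. The mean was 157-fold higher at E18.5 than at E16.5, 16.8-fold higher at P5 than at E18.5 and 4.62-fold higher at 4wk than at P5. The 4wk mean (80043 ± 1307, SD, n = 2) was 1.44-fold above the 12wk mean (55656 ± 8315, SD, n = 2). Prol1 was the second most abundant transcript in all 4 libraries of 4wk and 12wk. It held 9.23% and 9.44% of all gene reads at 4wk, 7.18% and 5.80% at 12wk, 1.86% and 2.18% at P5 and at most 0.151% before birth. Its order of levels was 4wk, 12wk, P5, E18.5, E14.5 and E16.5, and every library of a time point in this order lay above every library of the next.

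At E14.5, Prol1 stood at a like share of its 12wk level as several transcripts of the adult gland. The granular convoluted ducts are androgen-dependent and, according to the study, fully differentiated by puberty. They store kallikreins and epidermal growth factor. The 6 listed kallikrein genes other than Klk1b26, which was at 0 in every library before 4wk, stood at 0.0296% to 0.0356% of their 12wk mean at E14.5. For Egf, the duct-stored epidermal growth factor, this share was 0.0349%. Prol1 at E14.5 stood at 0.0369% of its 12wk mean, within 0.0340% to 0.0395% over the 3 libraries. Car6, the carbonic anhydrase of saliva, was at 0.0450% and Amy1, the salivary amylase, at 0.0405%. Klk1b22, a duct kallikrein, was at 6.10, 6.56 and 6.13 FPKM at E14.5 and at 0 in both E16.5 libraries. At E16.5 the kallikrein shares were 0 to 0.00432%, Prol1 was at 0.0118% and Egf at 0.0264%. In the fit, 6 of the 9 duct genes tested fell from E14.5 to E16.5 and none rose, Car6 fell by 1.96 on the log2 scale (SE 0.17, limma adjusted p = 4.5e-05), and Prol1 was 3.13-fold lower at E16.5. At E18.5, Prol1 was at 1.85% and Car6 at 0.415% of the 12wk mean, while the kallikreins were at 0.0115% to 0.0313%. Whether the E14.5 reads of Prol1 came from the fetal gland was not tested. The kallikrein genes are close copies of each other, so the split of reads among them is uncertain.

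**Figure D3:**
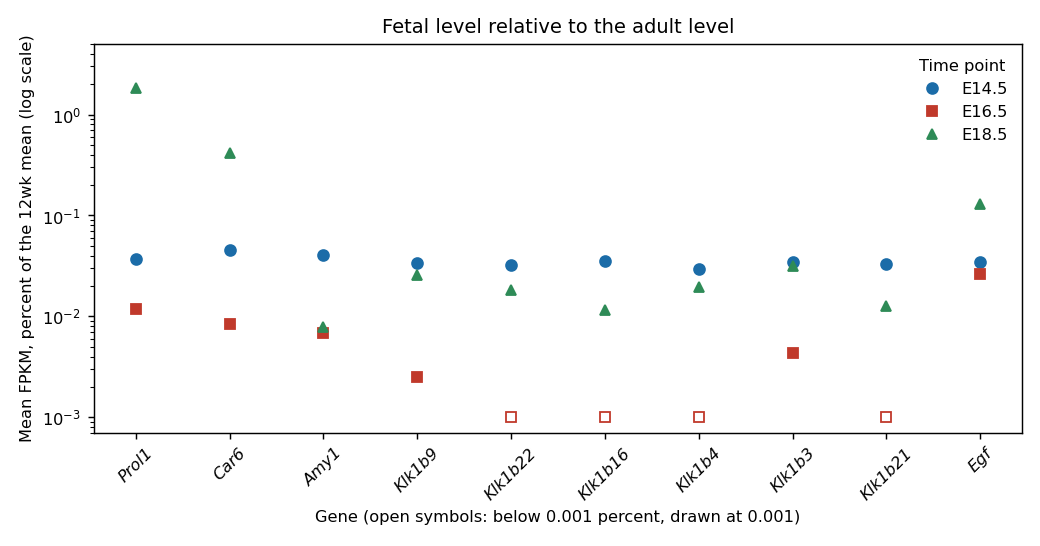
Mean FPKM of the 3 fetal time points as a percentage of the 12wk mean (vertical axis, log scale) for Prol1, Car6, Amy1, Egf and 6 kallikrein genes (horizontal axis, open symbols are values under 0.001%, drawn there). The E14.5 points of these genes, picked after their values were seen, lie between 0.0296% and 0.0450%, and at E18.5 Prol1, Car6 and Egf lie above them.

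Smr3a followed another course, with a low fetal maximum and a high level at 12wk alone. The E14.5 libraries held 1.96, 9.64 and 7.56 FPKM and the E16.5 libraries 24.7 and 16.45 FPKM. Values then went down to 7.04 and 9.30 FPKM before birth (E18.5) and to 3.43 and 1.11 FPKM at P5. At 4wk it was at 0 and 0.569 FPKM, which were 0 and 3 reads. At 12wk it reached 1106 and 10418 FPKM, or 16001 and 196375 reads. From E16.5 to 4wk each time point lay below the preceding time point, without overlap, and the mean went from 20.6 FPKM through 8.17 and 2.27 FPKM to 0.284 FPKM. E14.5 overlapped with E18.5 and with P5. As a share of all reads, Smr3a was 7.16-fold higher at P5 than at 4wk (exact 95% interval 2.40 to 35.1) and 25.9-fold higher at E18.5 than at 4wk (8.78 to 126), intervals that cover counting error only. The 12wk libraries exceeded the 4wk libraries 19413-fold (6643 to 94137, again counting error only).

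The 12wk libraries differed 9.42-fold in Smr3a. Among 10873 genes with at least 1 FPKM in both 12wk libraries, 1 gene, Amy1, had a larger ratio in either direction, and the median size of the log2 ratio was 0.14. Without replicate 2, Smr3a at 12wk was still 3368-fold above 4wk (exact 95% interval 1152 to 16335). In the parotid gland list, Amy1 stood at 625 and 6360 FPKM in replicates 1 and 2, Bpifa2, the parotid secretory protein, at 3770 and 33795 FPKM, and Dnase1, a salivary nuclease, at 148 and 1225 FPKM. These 3 genes were 10.2-, 8.97- and 8.31-fold higher in replicate 2. Prb1, also in that list, was 7.45-fold higher, while Car6 was 0.919-fold the level of replicate 1 and Prp2 had 2 reads and none. The summed level of the 6 listed genes was 28944 and 63804 FPKM at 12wk, against 38045 and 40535 FPKM at 4wk. The listed genes did not run together in younger glands. Bpifa2 averaged 22274 FPKM at E18.5 and 29474 FPKM at P5, where Amy1 averaged 0.273 and 2.41 FPKM. Prb1 averaged 212 FPKM at P5. Amy1, Bpifa2, Dnase1 and Prb1 rose from 4wk to 12wk (4 of 6 tested, none fell, median log2 difference 2.96 against 0 over all genes by limma). Without replicate 2, Prb1 no longer passed. Of the sublingual list genes, 4 were higher in replicate 2 as well, Dcpp1 4.01-fold, Dcpp2 8.23-fold, Dcpp3 4.84-fold and Muc19, which was below 1 FPKM in replicate 1, 87.0-fold. The part of these transcripts in the Smr3a values was not tested. At E14.5 the library lowest in Smr3a, replicate 1, was also lowest in acinar genes, with 0.568 FPKM of Aqp5 against 9.13 and 5.98 FPKM and 3.19 FPKM of Cldn10 against 30.5 and 27.6 FPKM. It was lowest as well in the sublingual list gene Dcpp2, with 0.764 FPKM against 120 and 86.6 FPKM, and the part of these differences in the Smr3a values was not tested.

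**Figure D4:**
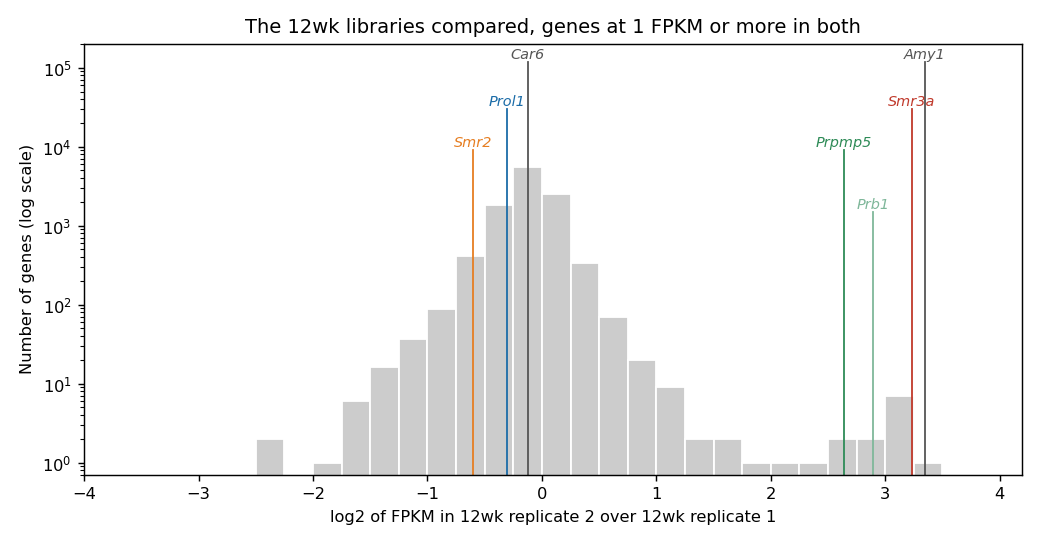
Number of genes (vertical axis, log scale) by the log2 ratio of 12wk replicate 2 over replicate 1 (horizontal axis), for the 10873 genes with at least 1 FPKM in both. Vertical lines mark named genes (Prb1, below 1 FPKM in replicate 1, is not among the 10873, and Prh1 was at 0 in both): Prol1 and Car6 lie in the bulk, Smr2 at -0.60 lies to the left, with 3.78% of genes farther from 0, and Smr3a and Prpmp5 lie in the right tail with Amy1.

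Smr2 was low before birth and highest at 12wk. It was at 0, 0.0970 and 0.138 FPKM at E14.5 (0, 2 and 3 reads), and the E16.5 pair held 1.05 and 0.593 FPKM, followed by 1.06 and 1.40 FPKM at E18.5. It then stood at 7.59 and 8.69 FPKM at P5, at 8.25 and 2.01 FPKM at 4wk, and at 35.9 and 23.7 FPKM at 12wk. P5 and 4wk overlapped, and the other neighbours in the order of levels, from 12wk down to E14.5, did not. Smr2 was 6.60-fold higher at P5 than at E18.5 and 5.81-fold higher at 12wk than at 4wk. The 4wk values rested on 39 and 13 reads, and the log2 difference of 2.52 from 4wk to 12wk was 3.33 without 4wk replicate 1 and 1.71 without replicate 2. Between the 12wk libraries Smr2 was lower in replicate 2 (0.659-fold), opposite to Smr3a. The listed lymph node genes, which mark tissue lying beside the gland, summed to 2.28 and 1.92 FPKM at E18.5 and 28.7 and 20.5 FPKM at P5, the step at which Smr2 was 6.60-fold higher. They summed to 9.74 and 0.614 FPKM in the 4wk libraries in which Smr2 held 8.25 and 2.01 FPKM, and to 5.47 and 5.02 FPKM at 12wk, where Smr2 was highest. Their part in the Smr2 values was not tested.

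The ratio of Smr3a to Smr2 within a library, which no scaling between libraries changes, ran through a wide range. It was 99.3 and 54.8 in E14.5 replicates 2 and 3. The E16.5 libraries gave 23.5 and 27.7 and the E18.5 libraries 6.62 and 6.63. At P5 it was 0.453 and 0.128, so that Smr2 exceeded Smr3a in both libraries, and in 4wk replicate 2 it was 0.283. At 12wk it was 30.8 and 440. The E14.5 ratios rest on 2 and 3 reads of Smr2.

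Prpmp5 was a gene of the neonatal gland. It was at 0 in the 3 E14.5 libraries, while the E16.5 libraries held 0.430 and 1.13 FPKM and the E18.5 libraries 26.9 and 30.3 FPKM. At P5 it reached 821 and 679 FPKM, and it ranked 72 and 92 among all genes. At 4wk it was at 0 and 0.0979 FPKM, the latter 1 read, and at 12wk at 1.64 and 10.2 FPKM. The P5 mean (750 ± 101, SD, n = 2) was 26.2-fold above E18.5 and at least 7482-fold above E14.5, taking the mean level of 3 reads per library for the latter. As a share of all reads, P5 exceeded 4wk 13357-fold (exact 95% interval 2397 to 527563). E14.5 and 4wk overlapped at 0, and no other neighbours in the order P5, E18.5, 12wk, E16.5, 4wk and E14.5 did. The 12wk libraries differed 6.22-fold, and 11 of 10873 genes had a larger ratio. Without 12wk replicate 2, 12wk exceeded 4wk 29.1-fold as a share of reads (4.96 to 1172), and with both libraries 115-fold (20.5 to 4549). The intervals given for Prpmp5 cover counting error only and leave out the difference between libraries. Of the parotid list genes given above for Smr3a, Amy1, Bpifa2, Dnase1 and Prb1 were higher in replicate 2 as Prpmp5 was, while Car6 and Prp2 were not, and their part in the Prpmp5 values was not tested.

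Prh1 was highest at E18.5. It was at 0, 0.0453 (1 read) and 0 FPKM at E14.5, rising to 0.476 and 1.39 FPKM at E16.5 and 7.09 and 6.52 FPKM at E18.5, before 4.90 and 3.93 FPKM at P5. It had no read in any of the 4 libraries of 4wk and 12wk. The E18.5 mean was 1.54-fold above P5, without overlap, and E14.5, 4wk and 12wk overlapped at 0. A count of 3 reads per library would correspond to 0.593 and 0.433 FPKM at 4wk and to 0.158 and 0.121 FPKM at 12wk. P5 was therefore at least 8.60-fold above 4wk and at least 31.6-fold above 12wk, and E18.5 at least 48.7-fold above 12wk. Unlike Prpmp5, Prh1 was not detected in 12wk replicate 2.

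The relatives showed how far paired genes ran together. Prb1 stood at 4.69 and 3.44 FPKM at E18.5, at 227 and 198 FPKM at P5, and at 0.876 and 6.53 FPKM at 12wk. The ratio of Prpmp5 to Prb1 was 2.81 and 3.41 in the E16.5 libraries, 5.74 and 8.81 in those of E18.5, 3.61 and 3.43 in those of P5, and 1.87 and 1.56 at 12wk. When, as an alternative chosen after these values were seen, reads were divided by the number of exon stretches found only 1 time in mm9, 849 for Prpmp5 and 441 for Prb1, the ratios were 1.15 to 3.62 from E16.5 to P5 and 0.771 and 0.644 at 12wk, so that which of these genes was higher at 12wk depended on the length used. Prp2 stood at 0.303 and 0.227 FPKM at E18.5 and at 13.2 and 11.8 FPKM at P5. The ratio of Prh1 to Prp2 was 23.4 and 28.7 at E18.5, where Prp2 had 5 and 7 reads, and 0.371 and 0.333 at P5, where Prp2 exceeded Prh1 in both libraries. Per uniquely found stretch these ratios were 24.3 and 29.8 at E18.5 and 0.385 and 0.346 at P5. The genes behind the most alike windows, 98.1% identical, thus exchanged their order between E18.5 and P5. Prpmp5 to Prh1 went from 0.903 and 0.813 at E16.5 to 3.80 and 4.65 at E18.5 and to 168 and 173 at P5.

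**Figure D5:**
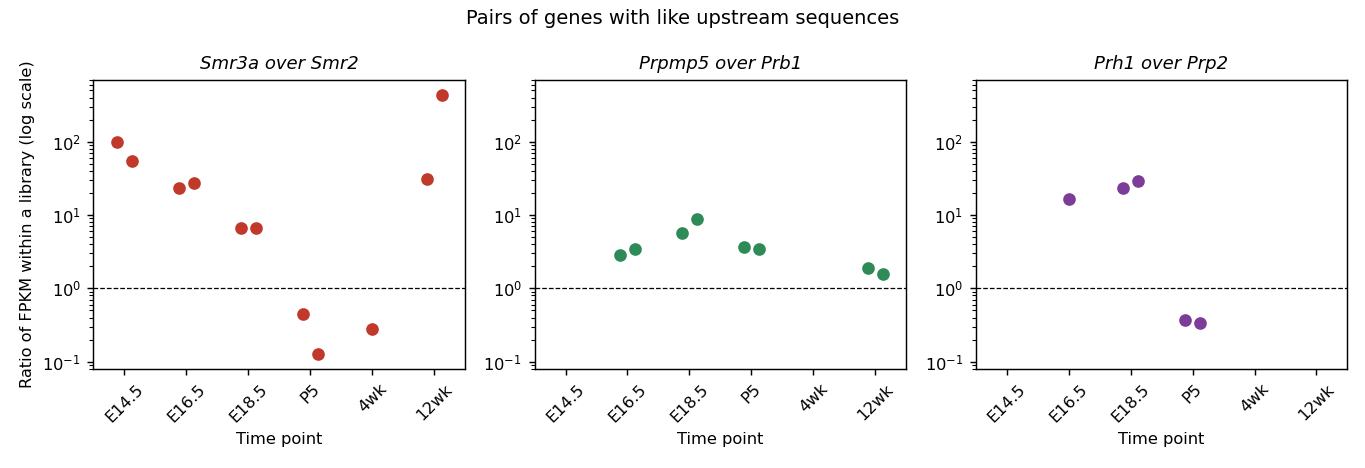
Ratio of FPKM within a library (vertical axis, log scale) at each time point (horizontal axis) for the 3 pairs with like upstream sequences. Points are the libraries in which both genes had reads, the dashed line is equality, Prpmp5 over Prb1 lies between 1.56 and 8.81 (0.644 and 3.62 per uniquely found exon stretch), and Smr3a over Smr2 and Prh1 over Prp2 crossed equality.

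Counts of called members are set beside the share of all 14650 tested genes, and nothing is read from them, since the members were chosen on these contrasts. From E14.5 to E16.5 none of the 5 was called higher (4.17% of all genes were) and Prol1 was called lower (0.983%). From E16.5 to E18.5, Prol1, Prpmp5 and Prh1 were called higher (1.09%) and none lower (1.85%). From E18.5 to P5, Prol1, Prpmp5 and Smr2 were called higher (2.07%) and none lower (2.97%). From P5 to 4wk, Prol1 was called higher (2.19%) and Prpmp5 and Prh1 lower (22.1%), and rescaling by median-of-ratios factors changed the counts over all genes from 321 higher and 3235 lower to 935 higher and 1278 lower. From 4wk to 12wk, Smr3a, Smr2 and Prpmp5 were called higher (2.68%) and none lower (2.48%). The median log2 difference over all tested genes was -0.53 from P5 to 4wk and -0.05 after that rescaling. Prol1 was higher at 4wk by 2.21 on the log2 scale before rescaling and by 2.89 after it. With either 12wk library left out, Smr3a was also called higher from E14.5 to E16.5 and lower in both steps from E18.5 to 4wk.

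Correlations over the 13 libraries, on log2(FPKM + 1), describe which members ran alike, and the points share time points and depth. The largest value among the 5 was between Prol1 and Smr2 (r = 0.83), followed by Prpmp5 and Prh1 (r = 0.80). Smr3a had r = 0.54 with Smr2, 0.15 with Prol1, -0.05 with Prpmp5 and -0.25 with Prh1. Over all tested genes, those most like Prol1 were Car6 (r = 0.988), Myrip, which links secretory granules to the cytoskeleton (r = 0.986), and Klk1, the tissue kallikrein (r = 0.980). Car6 went from 97.0 FPKM at E18.5 to 5661 at P5, 38636 at 4wk and 23409 at 12wk. For Smr3a they were Kcnf1, a potassium channel subunit (r = 0.935), Sectm1a (r = 0.932) and Hal, the histidine ammonia-lyase (r = 0.930), which averaged 1.24, 2.53 and 1.58 FPKM at 12wk. For Smr2 they were Psmb8, an immunoproteasome subunit (r = 0.978), Bglap2 (r = 0.964) and Ikzf3, a lymphoid transcription factor (r = 0.963). For Prpmp5 they were Prb1 (r = 0.976), Snph (r = 0.963) and Asgr2 (r = 0.962), and for Prh1 they were 2010109A12Rik (r = 0.973), Mfsd7c (r = 0.972) and Far2 (r = 0.969).

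The neighbours of both groups were followed in the same fit. Within 500 kb of Prol1, Smr3a or Smr2, 21 other annotated genes were in the expression files and 12 were tested. From E18.5 to P5 none of the 12 rose and 1 fell (Csn3). The most abundant of the 12 were Utp3, Grsf1, Dck and Igj, of which Utp3 and Grsf1 passed in no comparison. Igj, the joining chain of secreted antibodies, rose from P5 to 4wk and again from 4wk to 12wk, where its means were 0.194, 3.41 and 68.9 FPKM. From 4wk to 12wk, 3 of the 12 rose, namely Igj, Amtn and Odam, and Sult1e1 fell. Amtn, which encodes an enamel protein and is the next of the 21 genes beyond Prol1, stood at 1.21 FPKM at 4wk and 62.7 FPKM at 12wk. Within 500 kb of Prpmp5 or Prh1, 23 other annotated genes were in the expression files, of which 4 were tested. All 4, A630073D07Rik, Prb1, Gm4736 and Prp2, rose from E18.5 to P5 (median log2 difference 4.93, against -0.12 over all genes). From P5 to 4wk, Prb1, Gm4736 and Prp2 fell and A630073D07Rik rose, from 97.5 to 830 FPKM. A630073D07Rik then averaged 268 FPKM at 12wk (385 and 152 FPKM), a log2 difference of -1.77 that was -1.11 and did not pass without 12wk replicate 2, and -2.44 without replicate 1.

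Another 5 genes were listed as proline-rich and tested, of which Prr15 and Prr15l were not among the neighbours of Prpmp5 and Prh1. Of the 5, 3 rose and none fell from E18.5 to P5 (A630073D07Rik, Prb1 and Prp2). From P5 to 4wk, 2 rose (A630073D07Rik and, though not without P5 replicate 2 or 4wk replicate 2, Prr15) and 2 fell (Prb1 and Prp2). Prr15l rose earlier, from 3.50 FPKM at E14.5 to 21.1 FPKM at E16.5, and averaged 26.5 to 30.6 FPKM from E18.5 onwards. The SCPP list, which also holds Sparc and Sparcl1, relatives outside the SCPP family, had 17 genes in the files, and 9 were tested. Sparc, a secreted collagen-binding protein and the most abundant of them, averaged 541 to 574 FPKM from E14.5 to P5, 242 FPKM at 4wk and 55.5 FPKM at 12wk. From 4wk to 12wk, Amtn and Odam rose and Sparc fell, while from P5 to 4wk Spp1, the phosphoprotein osteopontin, rose and Sparc and Sparcl1 fell, the falls only before rescaling. From E18.5 to P5, Csn3 fell, as did Dmp1 before rescaling, and none of the 9 rose.

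Genes that supply proline, or that modify and cut secreted proteins, were listed as related steps. Of 9 tested genes of proline supply, none passed in any of the 5 comparisons. Oat, which links ornithine to proline, averaged 115 to 165 FPKM, and Pycr1, which completes proline synthesis, averaged 4.94 FPKM at E14.5 and 25.6 FPKM at P5. Of 9 tested genes of secretory phosphorylation and processing, 2 fell from P5 to 4wk, where 22.1% of all genes did: Fam20c, the Golgi kinase of secreted phosphoproteins, and Pcsk6, a convertase. Neither passed after median-of-ratios rescaling. Pcsk6 fell again from 4wk to 12wk, though not without 4wk replicate 1, and none of the 9 passed in the other 3 comparisons. Furin, a convertase that cuts precursors in the secretory pathway, averaged 16.3 to 27.9 FPKM.

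Markers of the gland's own cells were present: all of the 10 listed acinar genes but Tmed6 were tested. Of these 9, 8 rose from E14.5 to E16.5 (5 without E16.5 replicate 2, which loses Ano1, Creb3l1 and Slc12a2) and none passed later. Aqp5, the water channel of acinar cells, rose from 5.23 to 111 FPKM at that step, when Prol1 was at its lowest, and stood at 167, 180, 239 and 139 FPKM from E18.5 to 12wk. Of 9 tested duct genes, 8 rose from P5 to 4wk and 8 from 4wk to 12wk. The summed level of the 10 listed duct genes was 45.5 and 50.4 FPKM at P5, 24339 and 40658 FPKM at 4wk and 97216 and 104464 FPKM at 12wk, the step at which Smr3a and Smr2 reached their highest level. Of 5 sublingual list genes, 3 fell from 4wk to 12wk (Dcpp2, Dcpp3 and Muc19), of which Dcpp2 no longer passed when any library of these time points was left out. Muc19, the sublingual mucin, stood at 103 and 82.3 FPKM at 4wk and at 0.0252 and 2.19 FPKM at 12wk. Their summed level was 38730 and 44189 FPKM at P5, 28118 and 30415 FPKM at 4wk and 846 and 4081 FPKM at 12wk, with Bpifb2 at 0 at 4wk. Prol1 was 1.44-fold lower at 12wk than at 4wk, and the part of tissue next to the submandibular gland in any of these levels was not tested. Of 6 tested lymph node genes, 6 rose from E18.5 to P5 (4 after rescaling or with any library of these ages left out, which loses Cd3e and Cd79b) and 5 fell from P5 to 4wk (4 after rescaling, without Cd79b). Of 5 tested skeletal muscle genes, 2 rose from E14.5 to E16.5, of which Acta1 was lost with a replicate block or a pseudocount of 0.1, and 4 fell from E16.5 to E18.5, with a summed level of 895 and 1115 FPKM at E16.5 and at most 399 FPKM elsewhere. Of 5 sex-linked genes, Xist, transcribed in females, fell from E18.5 to P5, from 23.6 to 0.0306 FPKM, and the other 4 passed in no comparison. Between P5 and the male 4wk glands, Xist differed by 0.02 on the log2 scale. Prol1, Prpmp5 and Smr2 were called higher from E18.5 to P5, and the part of sex in their levels was not tested.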

How the data were processed

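RNA from submandibular glands was sequenced as 50-base single-end reads. According to the study's methods and the submitters' processing notes, the authors aligned reads to mm9 with TopHat2 (version 2.0.13) and Bowtie2 (2.2.6) and counted them with featureCounts, leaving out reads that mapped to several places or genes. The deposited values are FPKM, 1 file per library. The authors tested counts with DESeq2 (1.10.1 in those notes). Since FPKM are not counts, limma (3.58.1, R 4.3.3) was used here on log2(FPKM + 1), with all 13 libraries in 1 model and a variance trend. Fold changes of low genes are understated on that scale. A gene entered the fit if any library reached 1 FPKM (14650 of 23364). P-values were adjusted by the Benjamini-Hochberg method. Reads were recovered from the steps of low FPKM values, and where no annotated length gave whole reads (Smr2, Prpmp5, Prh1, Prb1 and Prp2) the smallest length that did was used. Counting intervals are exact at 95% and floors are 3 reads. The intervals use the summed reads of a time point, so they leave out the spread between libraries. Sequences were aligned in Biopython (1.88, Python 3.11.15). In simulated data for E16.5 to E18.5 (13659 genes), 100% of 200 changed genes were recovered and 1 unchanged gene was called. The median absolute error in those data was 0.15. In the fit, the SE of Smr3a at this step was 0.86 on the log2 scale, and recovery at that spread was not tested.

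The genes and the lists of related genes were chosen with earlier results of these data known. From each list, up to 4 genes with the highest mean FPKM were to be named, and for each of the 5 genes the 3 with the highest correlation. Genes named beyond this rule were chosen after their values were seen. The study describes the libraries of a time point as biological replicates. Some genes of the lists are not reported here.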

Additional observations from a re-analysis of the deposited data

How the results depend on the processing

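The number of genes called was recomputed with another pseudocount, filters, scaling, threshold and variance model, a replicate block and each library left out. With a pseudocount of 0.1 it was 1183 from E14.5 to E16.5 (755 with a pseudocount of 1), 1163 from E18.5 to P5 (738), 5767 from P5 to 4wk (3556) and 1658 from 4wk to 12wk (755). Median-of-ratios rescaling gave 2213 from P5 to 4wk. It moved the share of calls that were higher from 37.0% to 53.2% for E16.5 to E18.5, from 41.1% to 56.98% for E18.5 to P5 and from 9.03% to 42.3% for P5 to 4wk. Leaving out each library gave 729 to 878, 289 to 596, 567 to 761, 3234 to 3978 and 617 to 1472 calls for the 5 comparisons in order of age, the 1472 without 4wk replicate 2. The causes were not tested.

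With the replicate block the counts were 751, 422, 731, 3559 and 741, against 755, 430, 738, 3556 and 755 without it. Libraries with the same number had a mean correlation of deviations of -0.0158 over 30 pairs (-0.352 to 0.273). Those with different numbers had 0.0118 over 40 pairs (-0.273 to 0.352). Where a time point has 2 libraries, their deviations are opposite, so the means largely mirror each other. They cannot show whether a shared number stands for a shared batch.

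Rescaling and the replicate block changed no call among the 5 genes. A pseudocount of 0.1 added Smr2, Prpmp5 and Prh1 as higher from E14.5 to E16.5 and Smr3a as lower from P5 to 4wk, and leaving out 4wk replicate 1 added Smr2 as lower from P5 to 4wk. That difference of Smr2 ranged from -1.60 to 0.02 on the log2 scale. Of the genes most like each member, rescaling kept 1 of 3 for Prol1 and Smr2, 2 for Prpmp5 and 3 for Smr3a and Prh1, whereas a pseudocount of 0.1 kept 3 for Prol1, 2 for Prpmp5, 1 for Smr3a and Prh1 and 0 for Smr2. Of 117 calls of list genes, 33 were lost under at least 1 alternative, 18 of them under an alternative other than leaving out a library, and 0 reversed. Rescaling lost 9 calls from P5 to 4wk. Per uniquely found exon stretch, the ratio of Prpmp5 to Prb1 turned below 1 at 12wk (0.771 and 0.644), the cause of which was not tested. Depth limits Smr3a, Prpmp5 and Prh1 most at 4wk, where they had at most 3 reads.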

Other observations

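Genes of the steroid response were followed beside the SMR genes. From P5 to 4wk, Fkbp5, a steroid-induced cochaperone, rose by limma (log2 difference 1.49), while Nr3c1, the glucocorticoid receptor, fell by 1.22 and Srd5a1, which makes dihydrotestosterone, fell by 1.12 on the log2 scale, and neither of these falls passed after median-of-ratios rescaling or without 4wk replicate 2 for Nr3c1 and 4wk replicate 1 for Srd5a1. From 4wk to 12wk Fkbp5 rose again (1.04), though not without 12wk replicate 2 or 4wk replicate 1. Fkbp5 averaged 7.02 FPKM at P5, 21.7 FPKM at 4wk and 45.4 FPKM at 12wk. From E14.5 to E16.5, Foxa1, a transcription factor that opens chromatin for steroid receptors, rose by 1.10 on the log2 scale, a call that was lost without E14.5 replicate 1 or E16.5 replicate 2.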
